A study of Mus musculus with 30 samples.

Results

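Described here are genomic positions in mouse liver at which records of piggyBac (PB) and Sleeping Beauty (SB) gene therapy transposons coincide. Their starts are placed as at a common target site, but the bases there were not examined. All unique insertion starts were pooled over 17 livers treated with the PB vector and over 13 livers treated with the SB vector, and a position was kept where an SB start lay exactly 1 bp above a PB start on the same chromosome. The positions were thus chosen by the measured starts of both systems. The rule kept 2111 positions, which is 0.232% of 908736 PB positions and 0.227% of 929804 SB positions, against background shares of 0.0557% and 0.0544% at offsets of 500 to 1000 bp. All 30 livers came from Fah knockout (KO) mice, which lack the last enzyme of tyrosine breakdown and serve as a model of tyrosinemia type I (TT1). PB or SB was the only difference between the groups that the labels give; they name no strain, sex, age, dose or length of follow-up, and no untreated liver was among the samples. Insertion sites were read from whole-liver genomic DNA by streptavidin-based enrichment sequencing (SBE-seq), which amplifies the junction between the transposon end and the host DNA. Livers were lysed whole, so cell types cannot be told apart.

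PB and SB are cut-and-paste DNA transposons. The PB transposase inserts at the tetranucleotide TTAA and the SB transposase at the dinucleotide TA, and each duplicates its target on both sides of the insert. Every TTAA holds a single TA, which starts 1 base inside it, so a TTAA is a target that both enzymes can use. Both TTAA and TA read the same on either strand, so the enzymes can insert in either orientation. SB is known to prefer bendable, AT-rich surroundings of its TA, whereas PB is known to favour open chromatin near active genes and enhancers.

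In the deposited tables a PB record spanned 4 bp and an SB record 2 bp, the lengths of TTAA and TA. Each record also carried a strand and a whole number, called support here. The labels do not say what that number counts, and its smallest value was 3 in both groups. PB livers held 16364 to 124238 records and SB livers 4893 to 120220. The libraries went through a pair of nested PCRs with no molecular identifier described, so the intervals for shares below cover counting error only. No genome sequence of GRCm39, the build of the files, was used, so the bases at the shared positions and the genes around them are not given.

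The offsets of 500 to 1000 bp on both sides measure how densely SB starts lay around PB starts. The 2111 shared positions stood against a mean of 506 per offset over these 1002 offsets, which ran from 425 to 575. The ratio was 4.17, and 1605 positions lay above the background mean. This coincidence is what chose the positions, so it is a description and was not tested.

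The offsets just beside the one used by the rule were nearly empty. SB starts lay at offset 0 of 70 PB positions and at offset 2 of 80 PB positions. At offset -1 there were 100 and at offset 3 there were 93. In a TTAA none of these 4 offsets can begin a TA. Together they held 343 positions, a mean of 85.8 per offset and 0.169 times the background. The profile was mirror-symmetric about the shared TA. SB starts 5 bp before it numbered 851 and those 5 bp after it 850, both well above the flanking offsets more than 8 bp away, which ranged from 511 to 609 with a median of 558. Starts 8 bp away were also raised, with 642 before and 640 after, and starts 4 bp away numbered 610 and 631.

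**Figure D1:**
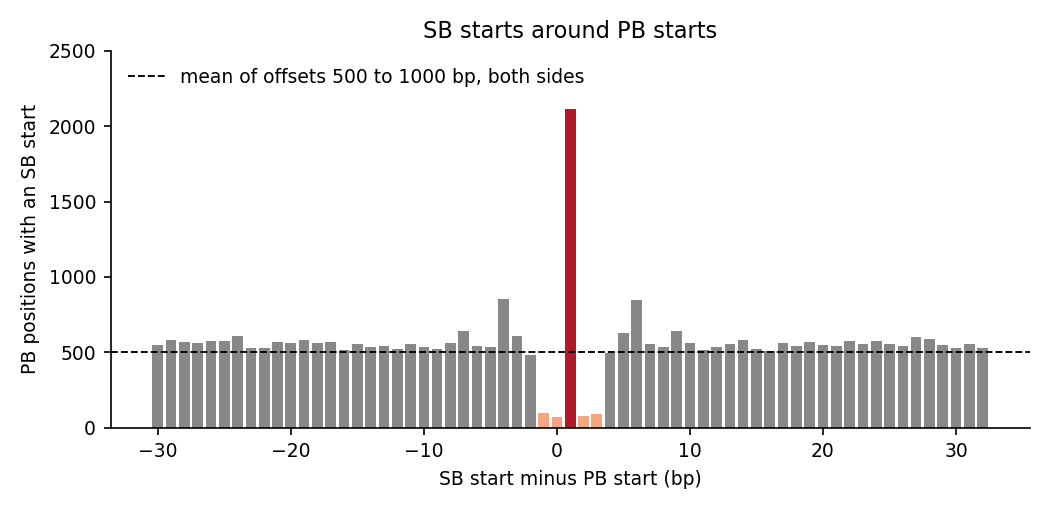
Number of PB positions that had an SB start at each offset from the PB start (bp); the dark bar is the offset of 1 bp that defines a shared target, the pale bars are offsets at which a TTAA cannot begin a TA, and the dashed line is the mean over offsets of 500 to 1000 bp. The bar of 2111 positions rises between 4 bars of 70 to 100, and smaller peaks of 851 and 850 lie 5 bp to each side of it.

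The letters around TTAA were counted in 32544 RefSeq promoter sequences (GRCm38.p6, around each gene's start; only their letters were used). Of these promoters 52.4% held a TTAA and 99.1% a TA, counted with overlaps; both motifs are their own reverse complement. TA began at 5.86% of places more than 8 bp from the TA of a promoter's 31242 TTAA sites. A TA is thus 17.1 times as frequent at the centre of TTAA as beside it in promoters, while SB starts were 3.78 times as frequent at the centre of PB positions as at the flanking offsets. TA stood 5 bp before the centre in 6.06% and 5 bp after it in 5.78% of promoter TTAA sites, near the 5.86% of the flanks, while SB starts there were 1.53 and 1.52 times the flanks. At 4 bp, TA itself was more frequent in promoters, at 6.96% before and 6.81% after the centre. At 8 bp it stood in 6.32% and 6.10%. Promoters are not a sample of the PB positions, so no rate of SB use per TA was computed.

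The share of shared positions lay in a narrow range over the livers. In PB livers 0.241% ± 0.022 of positions were shared and 0.0566% ± 0.0007 would be by the background (SD, n = 17). The lowest PB share was 0.201% in liver 14, the median 0.246% and the highest 0.274% in liver 4. In SB livers 0.235% ± 0.031 of positions were shared and 0.0543% ± 0.0031 by the background (SD, n = 13), with a lowest share of 0.208% in liver 8, a median of 0.226% and a highest of 0.328% in liver 13. Every liver's share lay above its own background. SB liver 13 was the smallest library and held 16 shared positions among 4883, so its 95% Wilson interval of 0.202% to 0.532% covers the shares of all other SB livers. The ratio of shared to background positions was 4.26 ± 0.38 over PB livers (SD, n = 17) and 4.33 ± 0.70 over SB livers (SD, n = 13).

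**Figure D2:**
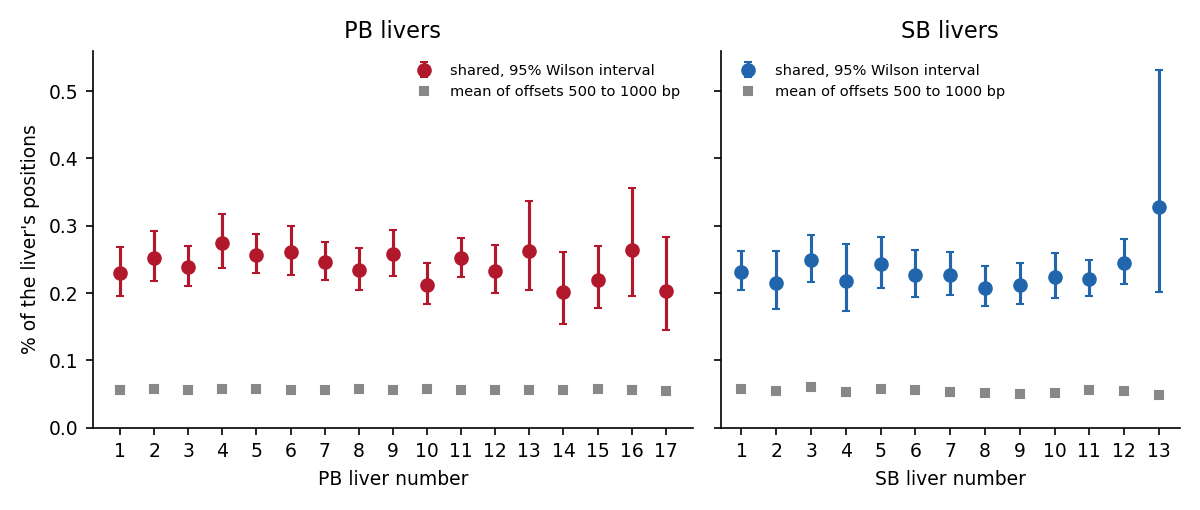
Percent of each liver's own positions that were shared with the other system (points with 95% Wilson intervals) and the mean over offsets of 500 to 1000 bp (squares), by liver number, with PB livers on the left and SB livers on the right. Shares ran from 0.201% to 0.274% in PB livers and from 0.208% to 0.328% in SB livers, and all lay above the squares.

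The coincidences were spread over the pairs of livers. The 221 pairs of a PB and an SB liver shared 3012 positions, with a median of 13, a highest value of 44 and 7 pairs without any. Pairs of livers with the same number shared 224 positions, against 230 by the sizes of their libraries, a ratio of 0.974. Pairs with different numbers shared 2788 against 2782, a ratio of 1.00. The counts by library size were scaled to the observed total of 3012. As 208 of the 221 pairs had different numbers, their ratio lies near 1 by construction. Livers of the same number thus shared about as many positions as the sizes of their libraries give.

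Most shared positions did not recur between livers of either system. Of the 2111 positions, 1659 (78.6%) were found in 1 PB liver and 1 SB liver. The 2999 PB records and 2160 SB records at shared positions are thus few per position. In PB, 422 shared positions (20.0%) occurred in at least 2 livers, against 16.9% of all PB positions. In SB the number was 42 (1.99%), against 1.91% of all SB positions. At least 2 livers of both systems held 12 positions.

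The share of PB positions with an SB start 1 bp above was then followed over the number of PB livers that held them. It was 0.224% for positions of 1 PB liver (95% Wilson interval 0.213% to 0.235%) and 0.274% for positions of 2 or more (0.249% to 0.301%). The background shares, 0.0543% and 0.0622% in the same order, differed in the same direction, and the ratios to them were 4.12 and 4.40. In 9 of 13 SB livers the share was higher at PB positions of 2 or more livers than at those of 1 liver, with ratios from 0.861 to 1.85 and a median of 1.20. These shares per SB liver were not set against a background, which was itself higher at positions of 2 or more PB livers. Positions held by 3 and by 4 PB livers were shared in 0.304% and 0.302% of cases. Their backgrounds were 0.0614% and 0.0599%, and the ratios 4.95 and 5.04. Positions of 7 and of 8 PB livers were shared in 0.152% and 0.117% of cases, from 4 and 2 positions, with ratios of 2.80 and 2.24. Among 4367 positions of 8 or more PB livers, 13 were shared (0.298%, interval 0.174% to 0.509%), against a background of 0.0547%, a ratio of 5.44. None of the 481 PB positions found in 12 or more livers was shared, which allows a share of up to 0.624% (3 counts of the total), so a lower share than at other PB positions was not detectable at this number.

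From the side of SB, 0.227% of positions in 1 liver and 0.216% of positions in 2 livers were shared with PB. The background shares were 0.0540% and 0.0727% in the same order, and the ratios to them 4.20 and 2.98. The share for 2 livers rests on 37 shared positions (95% Wilson interval 0.157% to 0.298%). For 3 or more SB livers 5 of 681 positions were shared (0.734%, 95% Wilson interval 0.314% to 1.71%), and the background there was 0.102%. Of these 5 positions, 4 had another PB or SB start so close by that both cannot be separate targets, and 1 did not. None of the 37 SB positions found in 5 or more livers was shared, which by the same limit of 3 counts allows a share of up to 8.11%.

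**Figure D3:**
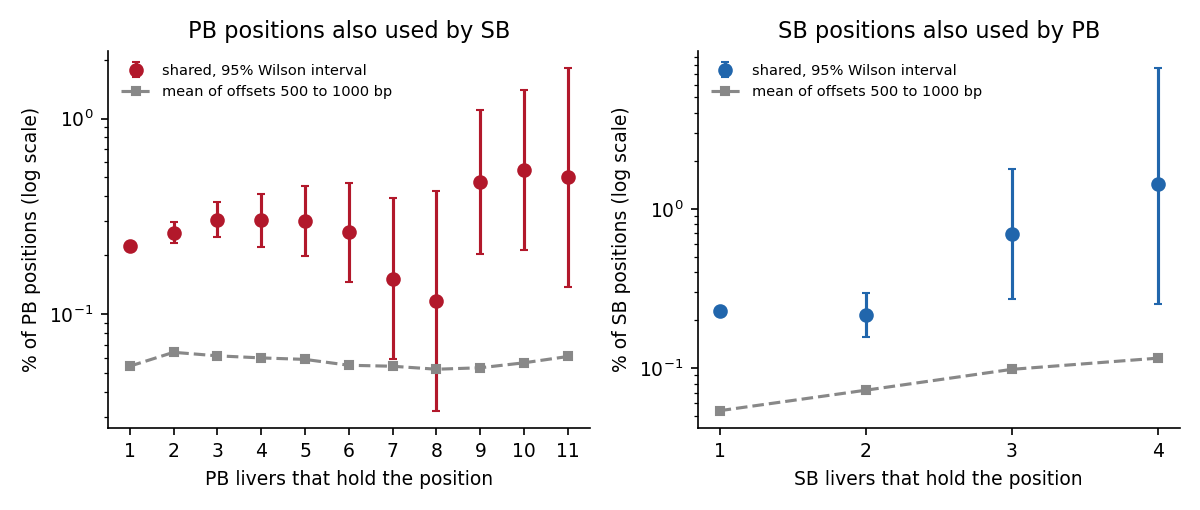
Percent of PB positions shared with SB by the number of PB livers that held them (left) and percent of SB positions shared with PB by the number of SB livers (right), on log scales; bars are 95% Wilson intervals and squares the mean over offsets of 500 to 1000 bp. PB shares stay between 0.117% and 0.546% from 1 to 11 livers, with widening intervals, and lie above the background line.

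Strand was not used to choose the positions and could be compared between the systems. Among 1810 shared positions with records on a single strand in each system, PB and SB lay on the same strand at 929 and on opposite strands at 881 (51.3% same, 95% Wilson interval 49.0% to 53.6%). Per SB liver, 51.6% ± 4.7 of records at shared positions lay on the strand of PB (SD, n = 13), where PB records were all on 1 strand. The lowest value was 42.9% in liver 13, from 14 records, and the highest 59.1% in liver 5. The mean lay 1.59 percentage points above 50% (95% interval -1.27 to 4.45), above it in 8 and below it in 4 of 13 livers, and did not pass the exact sign-flip permutation test (two-sided p = 0.25, adjusted p = 0.62 over 5 tests).

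Shared positions seen in several livers of either system were more often on the same strand. Of the 42 positions found in 2 or more SB livers, 28 had 1 strand in each system, and the strand was the same at 27 of them (96.4%, 95% Wilson interval 82.3% to 99.4%). For positions found in 1 SB liver it was the same at 902 of 1782 (50.6%, interval 48.3% to 52.9%). For positions found in 2 or more PB livers it was the same at 87 of 142 (61.3%, interval 53.1% to 68.9%), and for those in 1 PB and 1 SB liver at 822 of 1647 (49.9%, interval 47.5% to 52.3%). SB starts found in 2 or more livers at offsets more than 8 bp away from the shared TA had the same strand as the PB start in 142 of 263 pairs (54.0%, interval 48.0% to 59.9%). The strands also went together at the offsets where a TTAA cannot begin a TA, at 61 of 70 positions for offset 0 and at 68 of 79 for offset 2. These splits by number of livers were chosen after the values were seen and was not tested.

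**Figure D4:**
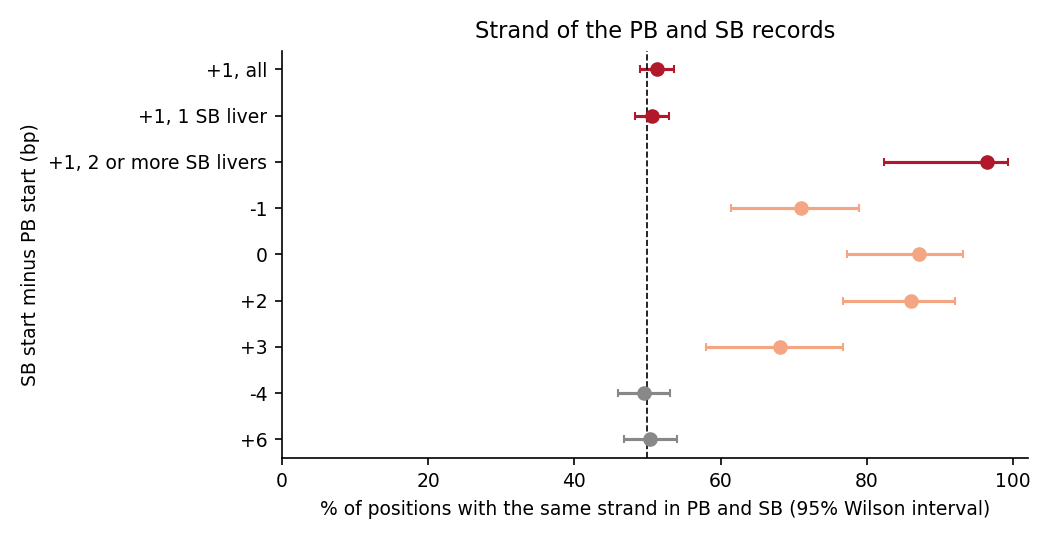
Percent of positions whose PB and SB records lay on the same strand, with 95% Wilson intervals, for shared positions (offset of 1 bp; all, in 1 SB liver, in 2 or more SB livers), for the 4 offsets at which a TTAA cannot begin a TA (pale points) and for the offsets 5 bp to each side of the shared TA. Shared positions of 1 SB liver lie at 50.6%, those of 2 or more SB livers at 96.4%, and the pale points between 68.1% and 87.1%.

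Some shared positions lay too close together to be separate targets, since TTAA cannot recur within 3 bp of itself. Another PB start within 3 bp, or an SB start at an offset of -1, 0, 2 or 3, was present at 69 shared positions (3.27%), against 3.69% of all PB positions. Of these 69, 16 (23.2%) occurred in 2 or more SB livers, and of the remaining 2042 shared positions 26 (1.27%) did. The strand was the same at 55 of 64 such positions with 1 strand in each system (85.9%) and at 874 of 1746 of the others (50.1%). Among the others, the positions of 2 or more SB livers had the same strand at 12 of 13, and those of 2 or more PB livers at 71 of 126 (56.3%, 95% Wilson interval 47.6% to 64.7%).

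A total of 34 shared positions fell into 15 groups whose neighbours lay under 10 bp apart, none wider than 5 bp. In 14 of these groups every record, PB and SB, was on a single strand. Close starts were common outside the shared set too, with 19640 pairs of PB starts 1 bp apart among all PB positions. The strands of such pairs were not tallied, so single-strand groups were not shown to be particular to shared positions. The group on chromosome 16 from 48299289 to 48299294 (GRCm39, first bases of its PB records) held 4 shared positions, with 6 PB records and 8 SB records, all on the minus strand. The group on chromosome 6 from 146019363 to 146019365 held 3 shared positions, with 9 PB and 5 SB records, all on the plus strand. The group on chromosome 1 from 24749866 to 24749870 was the exception, with 2 PB records on the plus and 2 SB records on the minus strand. What sequence lies at these places was not examined.

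The shared position found in most livers was on chromosome 16 from 37404300 to 37404303 (GRCm39, the 4 bases of the PB record; the SB record covers the middle 2). It was held by 11 PB livers with 15 records, 7 on the plus and 8 on the minus strand, and by 1 SB liver with 1 record. PB support there ran from 14 to 185 with a median of 43, and SB liver 1 had a support of 28. PB livers 3, 6, 11 and 12 carried both strands at this position. A position on chromosome 2 from 168042351 to 168042354 was likewise held by 11 PB livers and by 1 SB liver. There 10 of 11 PB records were on the minus strand, with supports from 14 to 186, and the single plus record, in liver 6, had a support of 8. The SB record, in liver 3, was on the minus strand with a support of 29.

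Chromosome 8 from 120638534 to 120638537 was shared by 10 PB livers, with 6 plus and 7 minus records and a median support of 42, and by SB liver 4, with a support of 120. Chromosome 2 from 70504361 to 70504364 was shared by 10 PB livers, with 7 plus and 6 minus records, and by SB liver 1. Chromosome 10 from 74904661 to 74904664 was shared by 10 PB livers, with 4 plus and 6 minus records, and by SB liver 5. These 3 positions had PB records on both strands over the livers, as had those on chromosome 3 from 40898289, chromosome 13 from 51307323 and chromosome 11 from 100409152, each in 9 PB livers and 1 SB liver.

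A further pair among the 10 most widespread positions had features of their own. Chromosome 11 from 3096732 to 3096735 was held by 9 PB livers, with 9 plus and 3 minus records, and by 2 SB livers, both on the plus strand with supports of 5 and 35. Its 1 Mb window was among those with the most shared positions. Chromosome 1 from 136175141 to 136175144 was held by 10 PB livers and 1 SB liver, and all 11 records were on the minus strand. It lies in one of the close groups above, from 136175141 to 136175145, whose 11 PB and 2 SB records were all on the minus strand. PB supports there were spread widely, from 3 to 381 with a median of 11, and the SB support, in liver 6, was 5. With records under a support of 10 left out, 7 PB livers still held it and the SB liver did not.

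The 5 positions found in 3 or more SB livers had records on 1 strand only. One was in 4 SB livers and 4 were in 3, of which the pair with the most records is given here. Chromosome 16 from 48299293 to 48299296 had minus-strand records in SB livers 5, 7, 11 and 13, with supports of 75, 99, 64 and 7, and minus-strand records in PB livers 6 and 9, with supports of 42 and 76. It belongs to the chromosome 16 group above, and the positions on X and chromosome 9 that follow also had a start too close to be a separate target. Chromosome X from 74692274 to 74692277 had minus-strand records in PB livers 5, 8, 9, 15 and 16, with supports of 32, 42, 168, 80 and 169, and in SB livers 6, 8 and 10, with supports of 126, 54 and 48. Chromosome 9 from 94755172 to 94755175 had plus-strand records in PB livers 6 and 10, with supports of 108 and 5, and in SB livers 7, 11 and 13, with supports of 56, 105 and 16. Within each of these 3 positions all PB and SB records were thus on the same strand.

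Records on both strands at a position of 1 liver were also compared. In PB livers this held for 1.99% ± 1.32 of shared positions and for 2.05% ± 0.95 of other positions (SD, n = 17). The difference of -0.07 percentage points (95% interval -0.53 to 0.40) was above 0 in 6 livers and below 0 in 11, and did not pass the sign-flip permutation test (two-sided, p = 0.77, adjusted p = 0.77). The share at other positions was lowest in PB livers 13 to 17, which had the fewest positions, and highest in liver 7, which had the most. In SB livers 1 of 2159 shared positions had both strands in its liver (0.0463%, 95% Wilson interval 0.00818% to 0.262%), against 991 of 946285 other positions (0.105%). Over all livers together, PB records lay on both strands at 292 shared positions (13.8%), against 11.3% of all PB positions, and SB records at 11 (0.521%), against 1.02% of all SB positions. These pooled shares were not matched for the number of livers that held a position. Of shared PB positions 20.0% were in 2 or more livers, against 16.9% of all PB positions.

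Support was not used by the rule either. Within a PB liver, the median support of shared positions was 0.984 times that of the liver's other positions (log2 difference -0.02 ± 0.13, SD, n = 17). The 95% interval of the ratio ran from 0.940 to 1.03, and the difference did not pass the permutation test (sign-flip, two-sided, p = 0.49, adjusted p = 0.62). PB livers 1, 2 and 4 had medians of 94.5, 83.5 and 79.5 at shared positions, against 87, 76 and 72 at other positions. PB livers 14 and 16 went the other way, with 99.5 and 124, against 117 and 160, from 56 and 43 shared records. The ratio was above 1 in 7 PB livers, below 1 in 8 and equal in the other two.

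Within an SB liver the ratio was 1.01 (log2 difference 0.02 ± 0.07, SD, n = 13; 95% interval of the ratio 0.981 to 1.04), which did not pass either (exact sign-flip permutation test, two-sided, p = 0.43, adjusted p = 0.62). It was above 1 in 8 SB livers and below 1 in 4. SB livers 2 and 9 had medians of 68.5 and 47 at shared positions, against 63 and 44 at other positions, and SB liver 13 had 77.5 against 87. When means of log2 support replaced medians, SB support was higher at shared positions, by 0.10 on the log2 scale (exact sign-flip permutation test, adjusted p = 0.0073). This was 1 of several alternatives, and the adjustment does not cover their number. Records under a support of 10 made up 6.95% ± 2.67 of SB records at shared positions and 8.47% ± 1.56 at other positions (SD, n = 13), lower at shared positions in 10 of 13 livers. In PB they made up 7.56% ± 2.75 and 7.69% ± 2.14 (SD, n = 17). The contrast of PB minus that of SB was -0.04 on the log2 scale (95% interval -0.12 to 0.04) and did not pass the permutation test (two-sided, p = 0.34, adjusted p = 0.62).

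**Figure D5:**
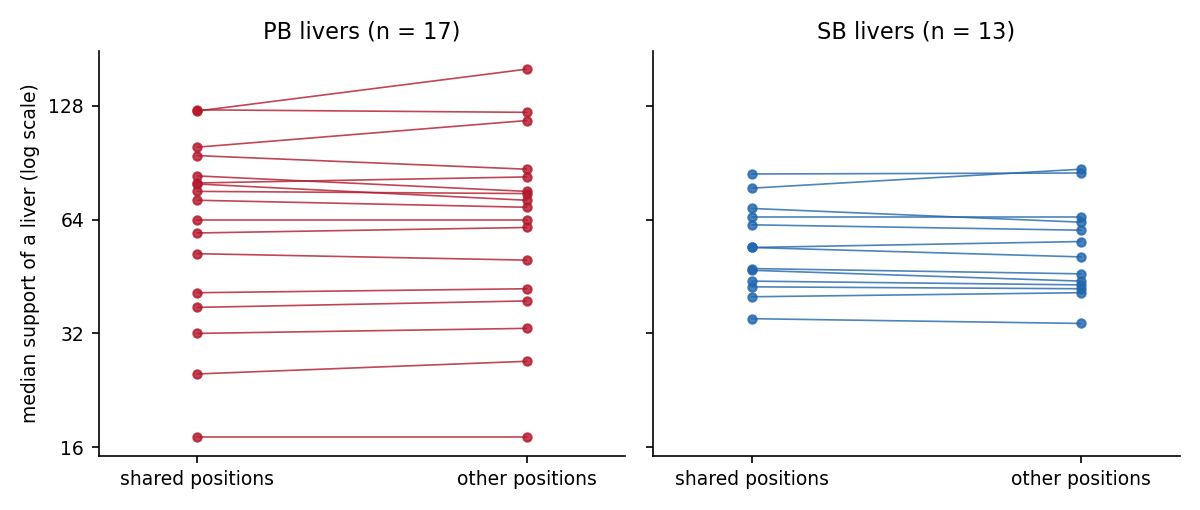
Median support (log scale) at shared positions and at all other positions of the same liver, 1 line per liver, for 17 PB livers (left) and 13 SB livers (right). Lines are near level in both systems; the steepest PB line is liver 16, with 124 at shared and 160 at other positions.

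The support of shared positions in PB was then set beside that in SB. Ranked within its liver, a shared position stood at a median percentile of 49.7 in PB and 51.3 in SB. Over 2111 positions Pearson's r between both percentiles was 0.0291 and Spearman's rho 0.0270, given as a description since positions share livers. Both percentiles were above 50 at 25.4% of shared positions, and the product of the separate shares was also 25.4%. Positions were ordered by their median support over records, which is not normalized between livers. At other positions, PB liver 16 had the highest median support of the PB livers (160) and SB liver 13 that of the SB livers (87). Records of these livers were the highest in the order below, so it also reflects the library. The highest PB median was on chromosome 5 from 92681879, with a support of 392 in PB liver 16 and 33 in SB liver 11. The next by PB median, on chromosome 1 from 67176552 and chromosome 7 from 35030363, had PB supports of 346 and 266 and SB supports of 29 and 35. Single PB records of other shared positions reached 381 on chromosome 1 from 136175141 and 327 on chromosome 8 from 120638534. The highest SB median was on chromosome 4 from 45406586, which had a median PB support of 63.5 over 4 livers and a support of 346 in SB liver 13. The next by SB median, on chromosome 8 from 81562372 and chromosome 10 from 122823444, had PB supports of 92 and 42 and SB supports of 289 and 255.

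Shared positions lay on every autosome and on X, and none was found on Y or on the mitochondrial genome, where both systems held few positions. Chromosome 6 held the most, 149 (7.06%), against 6.15% of all PB and 6.02% of all SB positions. X held the fewest, 34 (1.61%), against 3.58% of all PB and 3.37% of all SB positions. On X 0.104% of PB positions were shared, while the background of 9.63 positions there gave a ratio of 3.53 (95% Poisson interval 2.44 to 4.93). Ratios to the background ran from 3.37 on chromosome 19 to 5.11 on chromosome 14 over 20 chromosomes, with a median of 4.14. For 19 of 20 chromosomes the Poisson interval held the pooled ratio of 4.17. The exception, chromosome 14, had 105 shared positions and an interval of 4.18 to 6.18.

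Along the autosomes, shared positions became more frequent with the density of PB positions, and the background became more frequent with it. In the sparsest 10% of 1 Mb windows, ranked by PB positions, 0.0767% of PB positions were shared and 0.0176% by the background. In the densest 10% the shares were 0.284% and 0.0751%. The ratio was 4.36 in the sparsest windows (95% Poisson interval 2.62 to 6.80) and 3.78 in the densest (3.46 to 4.12), and in the 8 groups of windows between them it ran from 3.64 to 4.70 in no order. The densest 10% held 24.9% of shared autosomal positions, against 20.8% of PB, 17.4% of SB and 27.6% of background positions.

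Single windows held few shared positions. Of 2659 windows of 1 Mb with any site, 1501 held none, 610 held 1 and 8 held 6. The window with the most was on chromosome 12 from 83 to 84 Mb, with 8 shared positions against a background of 0.651. It and the windows named next were picked by this count. Their counts thus lie above the background by choice, and the pooled ratio was itself 4.17. The windows that start at 32 Mb of chromosome 5, at 131 Mb of chromosome 1, at 38 Mb of chromosome 6 and at 3 Mb of chromosome 11 followed with 7 each. In the first 3 of these the background was 0.549 to 0.594, whereas the chromosome 11 window, which had 642 PB and 1078 SB positions, had a background of 2.30. The median distance between neighbouring shared positions was 493 kb, and 175 positions (8.29%) had another within 10 kb. No like distances or tally of windows were computed for background coincidences or other PB positions. Whether shared positions lie closer together than those was thus not tested.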

How the data were processed

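Insertion sites of therapeutic transposons were analysed in liver DNA of 30 Fah KO mice, 17 treated with PB and 13 with SB. Per the submitters' processing notes, cutadapt and BWA were used with the build GRCm39; their versions and the filter behind the lists are not given in the sources used here. Each liver's table, as deposited by the authors, lists chromosome, start, end, strand and a whole number (support) that is not normalized.

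Starts were pooled per group and compared by exact position in Python 3.11.15 with scipy 1.17.1, pandas 2.3.3 and numpy 2.4.6, and drawn with matplotlib 3.10.9. Each liver was treated as 1 replicate, though the labels do not say that each came from its own animal. Support and strand were compared within livers by sign-flip permutation tests (all sign patterns for 13 livers, 100000 resamples for 17) and between groups by permutation with 100000 resamples. Benjamini-Hochberg adjustment covered the 5 tests, with calls at an adjusted p under 0.05. Intervals of mean differences use the spread between livers. The scripts were tested on simulated livers. Named positions are the 10 found in most livers, the 3 in most PB and the 3 in most SB livers, the 3 with the highest median support per system, and the 5 windows with most shared positions. Members, lists and tests were chosen with earlier results of these data known. The deposited merged tables were not used.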

Additional observations from a re-analysis of the deposited data

How the results depend on the processing

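The ratio of shared to background positions, 4.17, ranged from 4.13 to 4.29 over all alternatives, among them livers 1 to 12 alone, a support of at least 10, the same strand in both systems and nearer and farther background offsets. The number of shared positions fell to 1230 when the same strand was required, by construction, and was 1659 when only positions of 1 liver per group were kept. Leaving out 1 liver at a time gave 1863 to 2097 positions and ratios of 4.13 to 4.21. Of the 5 tests, 1 passed under an alternative. SB support at shared positions was higher by 0.0951 (log2) with means of log2 support (exact sign-flip permutation test, adjusted p = 0.0073). The cause of this was not tested. Over the other SB alternatives the adjusted p ran from 0.29 to 0.75. The adjustment covers the 5 tests and not the number of alternatives tried. No other test passed under any alternative, and several small differences changed sign. The PB support difference became 0.0233 in livers 1 to 12 and 0.00102 at positions of 1 liver. The same-strand excess became -0.323 percentage points with a support of at least 10, -0.370 at positions of 1 SB liver and -1.55 without starts too close to be separate targets. The both-strand difference became 0.0136 with a support of at least 10 and 0.112 at positions of 1 liver. With the liver number as a replicate block, the PB minus SB support contrast was 0.00113 (exact sign-flip permutation test, p = 0.96). Liver numbers were treated as names only, since the labels do not say that a number pairs livers. Over 1 Mb windows the 13 pairs of the same number correlated at 0.0079 to 0.120, 2 of them above 0.1. Of the 13 PB livers compared, 3 correlated best with their own number. Whether a number links livers was not tested. Leaving out starts too close together was chosen after seeing the data. SB liver 13, with 16 shared positions, limits the per-liver SB values.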
